A study of Mus musculus with 45 samples.

Results

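The lung-derived tumour lines YEJG-M1 and YEJG-M2 were compared with YEJG-FP, the fat-pad tumour line of the same origin. Their libraries were chosen by sample title and make up 9 of the 45 libraries deposited, with 3 per line. PolyA RNA was sequenced from cultured *PyMT*+ cells, which carry the polyomavirus middle T antigen under the mammary MMTV promoter and came from female mice on the FVB/N background. YEJG-FP was grown out of a tumour that formed after cells were transplanted into the fat pad. YEJG-M1 and YEJG-M2 were grown from lungs after a fat-pad tumour had been resected, and the parental line YEJG was grown from a primary mammary tumour. Beside them the series holds a second parental line, YEJH, with 5 fat-pad and 5 lung lines. No treatment separated the groups, and neither the age nor the number of founding cells of a line was given in the sources used here. A single YEJG fat-pad line exists in the series, so a property of that line and a property of its site cannot be told apart. The 3 libraries of a line are technical repeats, and p-values over libraries measure only the spread between repeats.

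Mammary carcinoma cells can pass from an epithelial state, held together by cadherins, claudins and desmosomes and built on keratin filaments, towards a mesenchymal state with vimentin filaments and a matrix of their own. The passage is often partial, and the ZEB and SNAI repressors, which silence epithelial genes by binding E-box sequences, are among its regulators. Cells that reach the lung meet other matrix proteins, growth factors and immune cells than in the mammary gland.

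Reads assigned to genes numbered between 11578293 and 16399035 in the 9 libraries, with a median of 13950715, and the whole series ranged from 9723860 to 16943900. Levels are given as CPM, counts scaled to 10⁶ reads after TMM normalisation. Library names carry 1 of 2 run prefixes, here called run A and run B. Run A supplied 2 libraries of YEJG-FP, 2 of YEJG-M1 and 1 of YEJG-M2, and the other 4 came from run B.

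The first library of YEJG-M1 carries the name of a YEJH line in its library name, so its identity was checked against the other lines. Over the 1000 most variable genes it correlated across genes with the mean of the other YEJG-M1 libraries at r = 0.9799, with YEJG-M2 at 0.834 and with YEJH-M1 at -0.30. All 9 libraries were nearest to their own line. Pairs of libraries of a line differed by more than sampling noise, with a chi-square per degree of freedom from 2.79 to 22.5, and all 9 were kept. Pairs from the same run were lowest, at 2.79 in YEJG-FP, 13.7 in YEJG-M1 and 7.83 in YEJG-M2. Pairs across runs lay from 18.7 to 22.5. Between runs, 1341 of the 13411 genes tested differed with an adjusted p under 0.05 (edgeR). On the first principal component, which held 65.2% of the variance after the run difference was removed, the parental line lay at one end, YEJG-FP between, and the lung lines at the other end. The second component, with 15.6%, set YEJG-FP apart from the parental line and from both lung lines.

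**Figure D1:**
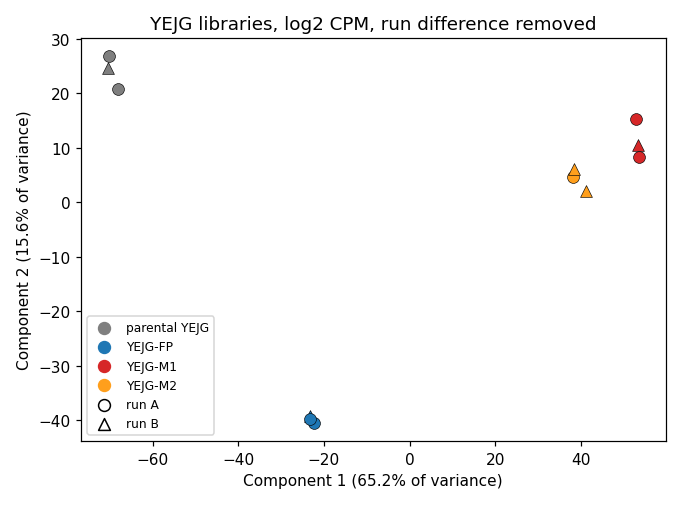
Principal components of the 9 libraries of YEJG-FP, YEJG-M1 and YEJG-M2 and the 3 of the parental line YEJG, with 1 point per library (circles run A, triangles run B) and axes in component scores. The first axis holds 65.2% and the second 15.6% of the variance, and the 3 libraries of each line lie together.

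Markers of 7 cell types were read next. The 10 mammary epithelial markers summed to 6182, 6388 and 6900.2 CPM in YEJG-FP, to 3980.2, 3553 and 3616 CPM in YEJG-M1 and to 3912, 3797 and 3437 CPM in YEJG-M2, with *Krt8*, a luminal keratin, as the most abundant in both lung lines and *Krt7* in YEJG-FP. Epithelial markers were thus abundant in all lines, and their sum was lower in all 6 lung libraries. Basal markers were led by *Krt14* while *Krt5* stayed at or under 0.171 CPM. Leukocyte markers summed to 3.59, 2.64 and 2.44 CPM in YEJG-FP, to 5.75, 4.496 and 3.88 CPM in YEJG-M1 and to 9.86, 8.84 and 10.4 CPM in YEJG-M2, higher in all 6 lung libraries, with *S100a8* as the most abundant in YEJG-M2, *Cd68* in YEJG-FP and YEJG-M1, and *Cd3e*, *Itgam*, *Adgre1* and *Nkg7* at 0 in all 9 libraries. Lung epithelial markers were led by *Foxj1*, a transcription factor of ciliated cells, while the surfactant genes *Sftpc*, *Sftpb*, *Sftpa1* and *Sftpd*, together with *Scgb3a2* and *Nkx2-1*, had no count in any of the 9. *Foxj1* was at 10.4, 10.1 and 10.01 CPM in the YEJG-FP libraries, 2.14, 1.69 and 0.854 CPM in those of YEJG-M1 and 13.4, 15.6 and 15.6 CPM in those of YEJG-M2, lower in YEJG-M1 and higher in YEJG-M2, with log2 differences of -2.71 ± 0.20 in YEJG-M1 and 0.52 ± 0.14 in YEJG-M2 (adjusted p = 0.0134, edgeR). The parental libraries held 27.8, 21.5 and 16.1 CPM. Endothelial markers summed to at most 0.214 CPM, with *Kdr*, *Cldn5*, *Emcn* and *Erg* at 0. Adipocyte markers lay between 6.39 and 9.14 CPM, almost all from the lipase gene *Lipe*, with *Plin1*, *Lep*, *Cidec* and *Ucp1* at 0. Of the markers tested in these lists, 7 of 9 mammary epithelial ones were lower and *Cldn7* was higher in both lung lines. *Krt14* was lower and *Acta2* higher among 2 basal markers tested, *Csf1r* was higher among 3 leukocyte markers, and the single adipocyte marker tested was not called. The single lung marker tested, *Foxj1*, passed with opposite signs and so was not called. In the test between lines described below, 1 mammary epithelial marker passed as higher and 6 as lower, 1 basal marker as higher and 1 as lower, and 1 leukocyte marker as higher.

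Differences between the lines were wide. A gene was called when YEJG-M1 and YEJG-M2 each differed from YEJG-FP in the same direction with an adjusted p under 0.05 by edgeR's quasi-likelihood test with run as a covariate, the adjustment being Benjamini-Hochberg over the 13411 genes tested. Of these genes, 3892 were called (29%), with 2200 higher (16.4%) and 1692 lower (12.6%) in both lung lines. A difference of at least 2-fold in both lines was met by 915 of them (6.82%), with 590 higher (4.4%) and 325 lower (2.42%), and 867 of the 915 are protein coding. At least 10-fold differences in both lines were seen for 88 higher and 39 lower genes. YEJG-M1 alone gave 5910 calls and YEJG-M2 alone 4651, and 52 genes passed in both lines with opposite signs. Both contrasts use the same YEJG-FP libraries, so the count of shared calls is not a count of independent findings. Below, a log2 difference is given with its standard error for each lung line minus YEJG-FP, and an adjusted p is the larger of the pair. Most genes named below were picked for a large difference, so separate ranges of their libraries follow from the choice. The ranges are those of technical repeats of these lines, not of sites.

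The line is the independent unit, so the lung and fat-pad lines were also tested with counts summed per line. In that test the lone YEJG fat-pad line was assumed to vary like the other groups of lines. It called 2934 of 17042 genes (17.2%) in the YEJG contrast, 1509 higher and 1425 lower. Of the 915 genes at 2-fold, 738 passed it with the same sign, 453 higher and 285 lower. The same fit gave the difference between the YEJG contrast and the contrast of 5 lung with 5 fat-pad YEJH lines, and 2275 genes passed (13.3%), among them 578 of the 915. Within the YEJH lines themselves 2 genes passed in edgeR's quasi-likelihood test, with 1157 at an unadjusted p under 0.05. The counts per gene list below are to be read beside the shares of all genes tested. These shares were 29% called in both lung lines, 6.82% called at 2-fold and 17.2% passing between lines.

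Epithelial cell junctions had the largest share of calls among the pathway lists, nearly all in the lower direction. Of 29 genes tested for adherens junctions, tight junctions, desmosomes and their regulators, 24 were lower and 1 was higher in both lung lines (86.2% called, against 29% of all genes), with a median log2 difference of -1.04 against 0.01 over all genes tested. At 2-fold, 8 were lower and 1 was higher, and 1 passed as higher and 23 as lower between lines. *Cdh1*, which encodes E-cadherin, was at 261, 244 and 267 CPM in the YEJG-FP libraries, 61.5, 62.6 and 59.3 CPM in those of YEJG-M1 and 100.3, 109 and 101.1 CPM in those of YEJG-M2. Its levels in the fat-pad line were above those of all 6 lung libraries, and its log2 differences were -2.05 ± 0.06 in YEJG-M1 and -1.30 ± 0.06 in YEJG-M2 (adjusted p = 8.36e-09, edgeR). *Dsp*, the plakin that ties desmosomes to keratin, was at 419.99, 436 and 474 CPM in the YEJG-FP libraries, 124, 131 and 142 CPM in those of YEJG-M1 and 152, 156 and 152 CPM in those of YEJG-M2. It was lower by 3.28-fold in YEJG-M1 and by 2.82-fold in YEJG-M2. *Dsg2*, a desmosomal cadherin, lay at 18.7, 21.2 and 21.4 CPM in the YEJG-FP libraries, 3.52, 3.13 and 3.28 CPM in those of YEJG-M1 and 3.85, 3.25 and 3.17 CPM in those of YEJG-M2, a 6.04-fold and a 5.61-fold difference without overlap.

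*Grhl2*, a member of the list and a transcription factor that maintains epithelial gene expression, was measured at 95.1, 96.1 and 90.9 CPM in the YEJG-FP libraries, 26.8, 28.1 and 24.4 CPM in those of YEJG-M1 and 35.1, 35.8 and 33.8 CPM in those of YEJG-M2. Its log2 differences were -1.80 ± 0.07 in YEJG-M1 and -1.42 ± 0.07 in YEJG-M2, with no overlap between YEJG-FP and the lung lines. Of other members, the splicing factor *Esrp1* had 125, 119 and 112 CPM in the YEJG-FP libraries, 34.04, 32.4 and 32.3 CPM in those of YEJG-M1 and 53.5, 52.3 and 48.9 CPM in those of YEJG-M2, and *Spint2*, an inhibitor of matriptase, had 159.8, 147 and 161 CPM in the YEJG-FP libraries, 48.8, 45.4 and 40.3 CPM in those of YEJG-M1 and 75.8, 75.2 and 61.1 CPM in those of YEJG-M2. Both were lower in each lung library than in any fat-pad library. *Epcam*, an adhesion molecule of epithelia, averaged 344, 127 and 198 CPM in YEJG-FP, YEJG-M1 and YEJG-M2, and 687 CPM in the parental line.

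*Cldn7*, a tight junction claudin, was the single member of the list that was higher. It stood at 4.38, 4.21 and 3.94 CPM in the YEJG-FP libraries, 17.1, 17.1 and 16.4 CPM in those of YEJG-M1 and 20.96, 19.3 and 17.6 CPM in those of YEJG-M2, and the fitted means of the lung lines were 4.105-fold and 4.73-fold higher, without overlap. In the parental libraries it stood at 147, 146 and 135 CPM, far above all 9. Its gene overlaps *Elp5* on the opposite strand, and the strand setting of the counting was not stated, so reads of overlapping partners cannot be told apart. *Tjp1*, *Pkp2*, *Ocln* and *Crb3* did not pass in both lines, with mean levels of 218, 178 and 202 CPM for *Tjp1* in the 3 lines.

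The promoters of 3 of the lower junction genes are shown because the ZEB and SNAI repressors bind the E-box CACCTG. They were picked from members that hold it. The letters CACCTG, or CAGGTG on the other strand, occurred in 20.2% of the 32851 promoters of 300 bases in the RefSeq table of build GRCm38.p6. Of the 29 junction genes, 17 had a promoter there and 11 of these held the letters, 8 of 13 called lower, *Cldn7*, which was higher, and *Ocln* and *Crb3*, which were not called. *Crb3* had the most matches, 4. The windows are *Spint2* at chr7:29281928-29282227 on the minus strand, *Epcam* at chr17:87635729-87636028 on the plus strand and *Dsp* at chr13:38151044-38151343 on the plus strand. Each runs from 250 bases before to 50 bases after the gene start, and capitals mark the matches, 3 in *Spint2*, 2 in *Epcam* and 1 in *Dsp*. A match describes letters only, and binding was not measured.
Spint2: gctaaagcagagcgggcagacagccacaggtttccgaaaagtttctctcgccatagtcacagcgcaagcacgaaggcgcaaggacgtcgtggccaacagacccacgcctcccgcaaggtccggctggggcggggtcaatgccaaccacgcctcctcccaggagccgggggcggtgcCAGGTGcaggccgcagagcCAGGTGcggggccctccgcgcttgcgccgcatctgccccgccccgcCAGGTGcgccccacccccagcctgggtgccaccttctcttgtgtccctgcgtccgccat
Epcam: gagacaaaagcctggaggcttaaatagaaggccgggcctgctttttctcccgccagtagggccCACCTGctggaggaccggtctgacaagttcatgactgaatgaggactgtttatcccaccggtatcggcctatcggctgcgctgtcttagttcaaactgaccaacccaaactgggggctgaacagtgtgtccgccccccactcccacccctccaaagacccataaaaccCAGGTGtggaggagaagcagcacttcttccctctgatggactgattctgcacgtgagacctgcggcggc
Dsp: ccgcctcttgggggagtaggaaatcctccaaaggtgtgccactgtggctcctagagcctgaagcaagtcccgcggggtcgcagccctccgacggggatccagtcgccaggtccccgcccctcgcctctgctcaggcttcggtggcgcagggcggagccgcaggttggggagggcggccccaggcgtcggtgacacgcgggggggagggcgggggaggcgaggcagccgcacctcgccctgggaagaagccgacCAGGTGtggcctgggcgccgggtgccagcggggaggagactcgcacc

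Keratins, the filament proteins of epithelia, were lower in 5 of 8 tested and higher in none (62.5% called), with a median log2 difference of -1.07, and 0 passed as higher and 4 as lower between lines. *Krt14*, a keratin of basal cells, fell from 476, 455 and 556 CPM in YEJG-FP to 141, 146 and 156 CPM in YEJG-M1 and 124, 131 and 137 CPM in YEJG-M2. Its parental level was higher still, at 1331, 1442 and 1329 CPM. *Krt7*, a simple epithelial keratin, was at 2295, 2142 and 2303 CPM in the YEJG-FP libraries, 602, 571 and 497 CPM in those of YEJG-M1 and 937, 916 and 805 CPM in those of YEJG-M2, and *Krt19*, another of them, at 74.3, 72.5 and 88.5 CPM in the YEJG-FP libraries, 14.1, 15.3 and 13.01 CPM in those of YEJG-M1 and 14.8, 15.9 and 14.2 CPM in those of YEJG-M2. Neither gene overlapped between the fat-pad and lung libraries, and the fitted differences of *Krt19* were 5.43-fold and 5.15-fold. The luminal pair moved less, since *Krt18* averaged 1416, 1149.96 and 1035 CPM and passed the test over libraries, while *Krt8* averaged 1983, 1736 and 1357 CPM and did not.

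Genes of the mesenchymal state went the other way. Of 25 tested, 18 were higher and 2 lower (80% called), with a median log2 difference of 0.64, and 9 were higher by at least 2-fold while none was lower by as much. In the test between lines, 9 passed as higher and 2 as lower. *Vim*, the intermediate filament vimentin, was at 779.5, 798 and 766 CPM in the YEJG-FP libraries, 4355, 4338 and 3802 CPM in those of YEJG-M1 and 2676, 3153 and 2821 CPM in those of YEJG-M2. Every lung library exceeded every fat-pad library, the fitted means by 5.42-fold and 3.68-fold, and its log2 differences were 2.44 ± 0.07 in YEJG-M1 and 1.88 ± 0.07 in YEJG-M2 (adjusted p = 2.47e-09, edgeR). *Sparc*, a secreted matricellular glycoprotein, rose from 106, 96.1 and 103 CPM to 544, 577 and 499 CPM in YEJG-M1 and 324, 400.4 and 375 CPM in YEJG-M2. It did not pass between lines, where its log2 difference was 2.18 ± 1.03 (adjusted p = 0.178, edgeR's quasi-likelihood test).

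*Zeb1*, the E-box repressor, was at 19.9, 19.7 and 17.3 CPM in the YEJG-FP libraries, 48.1, 51.4 and 54.8 CPM in those of YEJG-M1 and 48.9, 52.7 and 55.8 CPM in those of YEJG-M2. Its log2 differences of 1.47 ± 0.08 in YEJG-M1 and 1.47 ± 0.08 in YEJG-M2 were nearly equal, and its parental level was 2.35, 1.95 and 1.86 CPM. *Zeb2*, its paralogue, averaged 14.5, 42.9 and 35.8 CPM and was higher in both lung lines. Other E-box repressors and their partners did not follow together. *Snai2* was higher in both lung lines at 1.21, 1.92 and 4.32 CPM, whereas *Snai1* at 11.7, 9.74 and 3.65 CPM and *Twist1* at 32.3, 30.7 and 29.1 CPM did not pass in both.

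*Prrx1*, a homeobox factor of mesenchyme, was at 0.502, 0.143 and 0.0788 CPM in the YEJG-FP libraries, 5.402, 5.604 and 5.91 CPM in those of YEJG-M1 and 5.32, 4.51 and 7.302 CPM in those of YEJG-M2, with no count in the parental libraries. *Acta2*, smooth muscle actin, had 1 count in all of YEJG-FP and lay at 1.54, 1.63 and 1.05 CPM in YEJG-M1 and 5.703, 8.06 and 5.62 CPM in YEJG-M2. The genes of the list that were lower were *Cd44*, a hyaluronan receptor, and *Nt5e*, an ectonucleotidase. *Cd44* averaged 496, 269.6 and 279.96 CPM, and *Nt5e* averaged 99.9, 38.4 and 57.7 CPM.

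Fibroblast markers moved in the same direction as the mesenchymal genes. All 5 of the 10 that could be tested were higher in both lung lines, of which 3 passed between lines, and the list summed to 10.9, 13.4 and 11.7 CPM in YEJG-FP, to 77.9, 77.5 and 76.6 CPM in YEJG-M1 and to 76.1, 92.2 and 97.4 CPM in YEJG-M2. *Pdgfrb*, a receptor for platelet-derived growth factor, was its most abundant gene in YEJG-FP and YEJG-M2, at 5.595, 6.42 and 5.99 CPM in the YEJG-FP libraries, 18.5, 21.5 and 20.8 CPM in those of YEJG-M1 and 61.1, 76.6 and 81.5 CPM in those of YEJG-M2, while *Pdgfra* was in YEJG-M1. *Lum* and *Dpt*, which mark fibroblasts, were at 0 in all 9 libraries, and *Dcn* stayed at or under 0.236 CPM. *Col1a1*, the chain of type I collagen, reached 0.396, 3.97 and 1.12 CPM. Their part in the result was not tested.

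**Figure D2:**
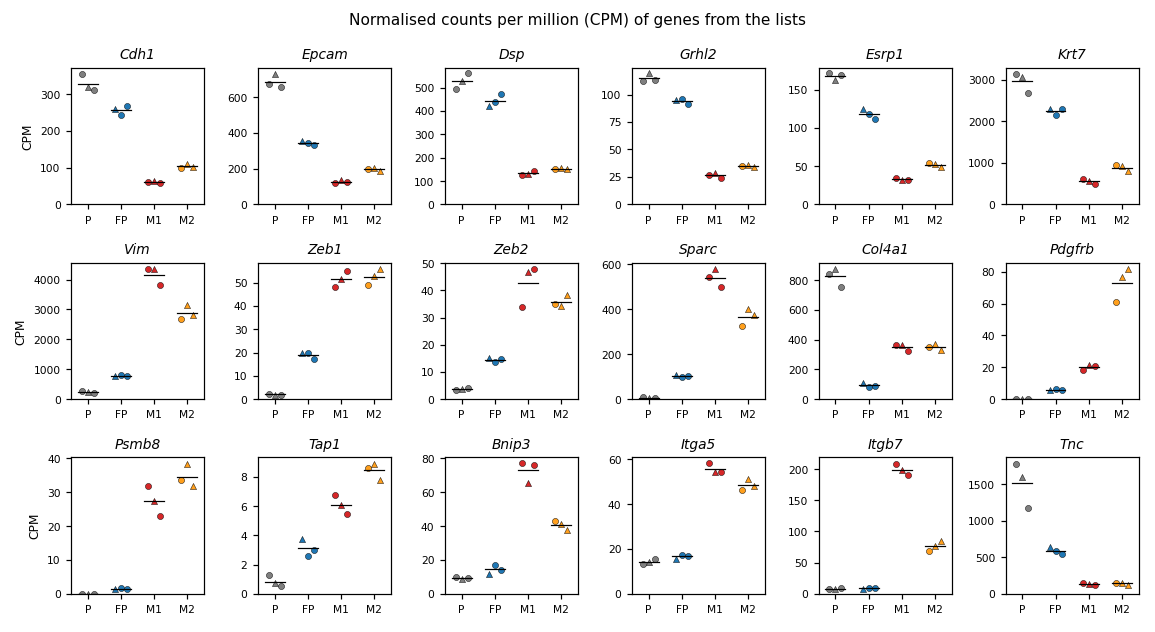
CPM on linear axes of 18 genes of the lists in the parental line (P) and in YEJG-FP, YEJG-M1 and YEJG-M2, with 1 point per library (circles run A, triangles run B) and bars at the means. *Cdh1*, *Epcam*, *Dsp*, *Grhl2*, *Esrp1*, *Krt7* and *Tnc* lie higher in YEJG-FP than in both lung lines, and the other 11 genes lie lower.

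Matrix genes were higher more often than lower. Of 41 tested for basement membrane and interstitial matrix, 19 were higher and 6 lower (60.98% called), with a median log2 difference of 0.47, and 12 were higher and 2 lower by at least 2-fold. Between lines, 13 passed as higher and 5 as lower. *Col5a1*, a chain of the fibril-regulating type V collagen, was at 13.4, 14.1 and 15.8 CPM in the YEJG-FP libraries, 108, 123 and 105 CPM in those of YEJG-M1 and 148, 188 and 170.1 CPM in those of YEJG-M2. The ranges did not overlap, and the fitted differences were 7.8998-fold and 11.4-fold. *Fbln1*, the matrix glycoprotein fibulin, lay at 0.0717, 0.214 and 0.158 CPM in the YEJG-FP libraries, 17.7, 19.4 and 17.5 CPM in those of YEJG-M1 and 4.93, 6.795 and 5.94 CPM in those of YEJG-M2, and the YEJG-M1 values were above those of YEJG-M2 as well. *Ccn3*, a matricellular protein, was at 0.646, 0.642 and 1.02 CPM in the YEJG-FP libraries, 13.1, 14.5 and 17.1 CPM in those of YEJG-M1 and 3.62, 5.95 and 7.43 CPM in those of YEJG-M2, again without overlap.

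Basement membrane chains did not move as 1 group. *Col4a1* and *Col4a2*, type IV collagen genes, overlap on opposite strands, and reads of the overlap cannot be told apart. They averaged 93.1 and 80.6 CPM in YEJG-FP, 352 and 203 CPM in YEJG-M1, and 351 and 220.1 CPM in YEJG-M2. Both were higher in each lung line. Their parental means, 824 and 469 CPM, lay above all 9 libraries. The laminin chain genes *Lama3* and *Lamb3* were lower in both lung lines, with *Lamb3* at 147, 57.8 and 74.6 CPM. *Tnc*, the glycoprotein tenascin-C, was at 639, 584 and 551 CPM in the YEJG-FP libraries, 148, 137 and 121 CPM in those of YEJG-M1 and 150.4, 154 and 119.7 CPM in those of YEJG-M2. It was 4.29-fold and 4.14-fold lower, and the parental libraries held 1784, 1595 and 1171 CPM. *Lox*, a collagen crosslinking oxidase, averaged 5.803, 0.138 and 0.535 CPM, whereas its relative *Loxl3* averaged 1.71, 38.04 and 7.55 CPM.

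*Fn1*, the matrix protein fibronectin, belongs to the 5 genes taken from the study. It was at 687, 669.7 and 614 CPM in the YEJG-FP libraries, 861, 774 and 691 CPM in those of YEJG-M1 and 1012, 1049 and 924 CPM in those of YEJG-M2. All lung libraries lay above the fat-pad ones, but the highest fat-pad value and the lowest YEJG-M1 value nearly met, and the log2 differences were 0.27 ± 0.08 in YEJG-M1 and 0.62 ± 0.08 in YEJG-M2 (adjusted p = 0.01803, edgeR). The call was small and was lost without any of 4 single libraries, replicates 2 and 3 of YEJG-FP (adjusted p = 0.0509 and 0.0977, edgeR) and replicates 1 and 2 of YEJG-M1 (0.0555 and 0.0598). It was also not made with either run alone (adjusted p = 0.0648 and 0.507, edgeR), but those fits left a single library of YEJG-M2 in run A and of YEJG-FP and of YEJG-M1 in run B. The mean of the pair of log2 differences was 0.44 with all libraries and stayed between 0.35 and 0.49 over all settings. *Fn1* did not pass between lines (adjusted p = 0.427, edgeR).

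Integrins and their adaptors gave 16 higher and 5 lower genes of 33 tested (63.6% called), with a median log2 difference of 0.27, and 7 higher against 1 lower at 2-fold. In the test between lines, 11 passed as higher and 5 as lower. *Itga5*, the fibronectin receptor chain, was at 15.6, 17.5 and 17.02 CPM in the YEJG-FP libraries, 58.6, 54.5 and 54.5 CPM in those of YEJG-M1 and 46.2, 50.996 and 47.9 CPM in those of YEJG-M2. All 6 lung libraries exceeded the fat-pad ones, with log2 differences of 1.77 ± 0.08 in YEJG-M1 and 1.57 ± 0.08 in YEJG-M2 (adjusted p = 1.50e-08, edgeR), and the parental libraries held 13.5, 13.98 and 15.4 CPM. Its partner *Itgb1* was at 1032, 1004 and 990.5 CPM in the YEJG-FP libraries, 724, 755 and 761 CPM in those of YEJG-M1 and 962, 936 and 955 CPM in those of YEJG-M2 and passed as lower in YEJG-M1 alone (adjusted p = 3.17e-05, against 0.377 in YEJG-M2, edgeR), so it was not called. Its values were lowest in YEJG-M1, while those of YEJG-M2 came close to YEJG-FP.

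*Itgb7*, a chain of the leukocyte integrins that bind MAdCAM-1 and E-cadherin, showed the widest difference among the integrins named by the rule. It was at 7.53, 9.21 and 10.1 CPM in the YEJG-FP libraries, 209, 198 and 191 CPM in those of YEJG-M1 and 69.3, 75.9 and 83.9 CPM in those of YEJG-M2, which is 22.7-fold and 8.67-fold higher on the fitted means. *Parvb*, the adhesion adaptor beta-parvin, was at 1.87, 1.998 and 3.31 CPM in the YEJG-FP libraries, 21.9, 17.1 and 16.5 CPM in those of YEJG-M1 and 14.8, 14.3 and 13.96 CPM in those of YEJG-M2, without overlap. *Itgb6*, the chain of an epithelial integrin that activates latent TGF-beta, was lower at 22.3, 21.8 and 21.3 CPM in the YEJG-FP libraries, 6.52, 6.91 and 7.42 CPM in those of YEJG-M1 and 9.86, 11.8 and 10.1 CPM in those of YEJG-M2. The laminin receptor chains *Itga3*, *Itga6* and *Itgb4* were also lower in both lung lines, with *Itgb4* at 475, 193 and 244 CPM.

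Proteases and their inhibitors were split, with 11 higher and 12 lower of 40 tested (57.5% called) and a median log2 difference of 0.07, and 9 passed as higher and 7 as lower between lines. *Mmp3*, the matrix metalloproteinase stromelysin-1, was higher at 8.03, 7.06 and 5.99 CPM in the YEJG-FP libraries, 32.2, 25.02 and 30.5 CPM in those of YEJG-M1 and 25.6, 19.5 and 25.2 CPM in those of YEJG-M2. *Mmp9*, a gelatinase, was higher too, with means of 1.105, 6.24 and 6.01 CPM. Among the lower genes, *Serpinb2*, the inhibitor of urokinase called PAI-2, was at 135, 115 and 128 CPM in the YEJG-FP libraries, 23.4, 24.04 and 27.4 CPM in those of YEJG-M1 and 36.2, 24.4 and 30.4 CPM in those of YEJG-M2. *Serpinb5*, or maspin, an epithelial serpin, was at 137, 138 and 145 CPM in the YEJG-FP libraries, 35.6, 40.3 and 47.04 CPM in those of YEJG-M1 and 46.3, 46.5 and 46.2 CPM in those of YEJG-M2, and *Ctsh*, the lysosomal protease cathepsin H, was at 35.8, 30.04 and 28.9 CPM in the YEJG-FP libraries, 11.1, 8.54 and 9.33 CPM in those of YEJG-M1 and 13.7, 11.2 and 10.7 CPM in those of YEJG-M2. None of these 3 lower genes overlapped between YEJG-FP and the lung lines, and their fitted differences lay between 2.61-fold and 4.94-fold. They were named for calls at 2-fold, so this separation follows from the choice.

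Genes of interferon response and class I antigen presentation were mostly higher. Of 32 tested, 20 were higher and 3 lower (71.9% called), with a median log2 difference of 0.47, and 17 passed as higher and 2 as lower between lines. *Psmb8*, a catalytic subunit of the immunoproteasome that cuts peptides for class I molecules, was at 1.36, 1.86 and 1.34 CPM in the YEJG-FP libraries, 31.9, 27.5 and 23.1 CPM in those of YEJG-M1 and 33.5, 38.4 and 31.9 CPM in those of YEJG-M2. The lung libraries stood 18.2-fold and 22.8-fold higher, with log2 differences of 4.18 ± 0.18 in YEJG-M1 and 4.51 ± 0.18 in YEJG-M2 (adjusted p = 2.83e-09, edgeR), and the parental libraries held 0.0838, 0 and 0 CPM. *H2-M3*, a class I molecule that presents formylated peptides, was at 3.66, 3.996 and 4.02 CPM in the YEJG-FP libraries, 12.5, 11.9 and 12.2 CPM in those of YEJG-M1 and 10.02, 9.08 and 8.14 CPM in those of YEJG-M2. *Bst2*, or tetherin, which holds budding virus at the cell surface, was at 2.73, 1.998 and 2.68 CPM in the YEJG-FP libraries, 5.402, 7.69 and 5.72 CPM in those of YEJG-M1 and 8.09, 7.697 and 7.17 CPM in those of YEJG-M2. Neither *H2-M3* nor *Bst2* overlapped between YEJG-FP and the lung lines.

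*Nlrc5*, the transactivator of class I genes, was also higher, at means of 0.303, 7.56 and 2.49 CPM. The peptide transporter genes *Tap1* and *Tap2* followed, with *Tap2* at 13.5, 23.1 and 36.9 CPM. *Tap1* overlaps *Psmb9* on the opposite strand, and reads of that pair cannot be told apart. The light chain gene *B2m* averaged 176, 277 and 207 CPM and passed in both lines. *Irf1*, an interferon-induced transcription factor, averaged 50.5, 77.6 and 88.8 CPM.

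The list did not move as a whole. Its 3 lower members were *Ifih1*, a sensor of double-stranded RNA, the ubiquitin-like modifier *Isg15*, and *Oasl1*, a relative of the oligoadenylate synthetases. *Isg15* averaged 5.34, 1.43 and 2.76 CPM, and *Oasl1* averaged 5.25, 1.09 and 1.26 CPM. *Ifit1* and *Rsad2*, which interferon type I induces, were not called, with *Ifit1* at 2.33, 0.779 and 1.62 CPM.

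Promoters of 2 higher members are shown because they hold a repeat of the kind bound by interferon response factors. They were picked from members that hold it, and it was searched as GAAA, any 2 bases and GAAA again, on both strands. It occurred in 3.44% of the 32851 promoters. Of the 32 genes of the list, 28 had a promoter in the table and 12 of these held the letters (42.9%). Among members with a promoter, 6 of 16 called higher and 2 of 3 called lower held them. The windows are *Gbp2*, an interferon-induced GTPase, at chr3:142620413-142620712 on the plus strand and *Bst2* at chr8:71537423-71537722 on the minus strand, in build GRCm38.p6 from RefSeq. Capitals mark the matches, 1 in *Gbp2* and 2 in *Bst2*, and binding was not measured.
Gbp2: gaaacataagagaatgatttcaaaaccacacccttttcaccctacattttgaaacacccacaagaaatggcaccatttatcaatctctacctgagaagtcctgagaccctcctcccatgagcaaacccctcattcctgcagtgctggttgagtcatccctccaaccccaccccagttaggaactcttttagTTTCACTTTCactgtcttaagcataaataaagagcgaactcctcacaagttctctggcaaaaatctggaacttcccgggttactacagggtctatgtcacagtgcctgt
Bst2: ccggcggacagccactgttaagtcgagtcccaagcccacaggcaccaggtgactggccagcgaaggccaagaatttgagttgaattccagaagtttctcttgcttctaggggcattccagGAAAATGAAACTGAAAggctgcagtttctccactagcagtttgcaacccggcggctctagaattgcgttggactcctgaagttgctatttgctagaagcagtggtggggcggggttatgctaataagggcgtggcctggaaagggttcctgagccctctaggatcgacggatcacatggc

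Cytokines, chemokines and myeloid growth factors were divided, with 6 higher and 7 lower of 28 (46.4% called) and a median log2 difference of 0.19, and 3 passed as higher and 5 as lower between lines. *Csf1*, the growth factor of macrophages, was at 259, 226 and 227 CPM in the YEJG-FP libraries, 595, 575 and 491 CPM in those of YEJG-M1 and 534, 557 and 488 CPM in those of YEJG-M2. The ranges were apart, by 2.38-fold and 2.22-fold. *Cx3cl1*, or fractalkine, a membrane-bound chemokine, was at 11.6, 10.1 and 10.95 CPM in the YEJG-FP libraries, 34.8, 33.7 and 29.9 CPM in those of YEJG-M1 and 27.1, 28.7 and 27.8 CPM in those of YEJG-M2, and *Ccl9*, a chemokine for myeloid cells, was at 5.09, 6.78 and 4.73 CPM in the YEJG-FP libraries, 26.8, 24.9 and 21.2 CPM in those of YEJG-M1 and 18.5, 22.1 and 15.6 CPM in those of YEJG-M2. Both were higher in every lung library, and *Ccl9* did not pass between lines (adjusted p = 0.142, edgeR). *Cxcl16*, a transmembrane chemokine, was lower at 167, 169.7 and 168 CPM in the YEJG-FP libraries, 45.9, 41.1 and 39.4 CPM in those of YEJG-M1 and 74.8, 67.7 and 65.6 CPM in those of YEJG-M2.

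Receptor tyrosine kinases and their ligands changed in both directions, with 14 higher and 14 lower of 43 (65.1% called) and a median log2 difference of -0.07, and 8 passed as higher and 11 as lower between lines. Several ErbB genes were on the lower side. *Egfr* averaged 97.6, 34.7 and 45.4 CPM, *Erbb3* averaged 49.8, 21.6 and 29.8 CPM, and the ligands *Areg*, *Ereg*, *Btc*, *Tgfa* and *Epgn* were all lower in both lung lines, whereas the ligand *Nrg2* was higher and *Hbegf* and *Nrg1* were not called. *Epgn*, or epigen, was at 14.8, 11.99 and 15.4 CPM in the YEJG-FP libraries, 2.06, 2.997 and 3.02 CPM in those of YEJG-M1 and 5.32, 5.29 and 4.33 CPM in those of YEJG-M2, and *Fgfbp1*, which releases fibroblast growth factors from the matrix, was at 104, 118 and 128 CPM in the YEJG-FP libraries, 26.5, 31.2 and 28.1 CPM in those of YEJG-M1 and 36.6, 42.7 and 38.2 CPM in those of YEJG-M2. *Epha1*, an ephrin receptor, was lower at 60.04, 60.7 and 66.1 CPM in the YEJG-FP libraries, 15.01, 11.9 and 11.96 CPM in those of YEJG-M1 and 17.03, 18.04 and 16.03 CPM in those of YEJG-M2.

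On the higher side stood *Ephb2*, another ephrin receptor, at 9.25, 8.42 and 9.46 CPM in the YEJG-FP libraries, 80.3, 79.8 and 75.1 CPM in those of YEJG-M1 and 75.4, 90.3 and 82.3 CPM in those of YEJG-M2. It was 8.83-fold and 9.07-fold higher, and the parental libraries held 1.01, 1.301 and 1.71 CPM. *Pdgfra*, the second platelet-derived growth factor receptor, averaged 3.07, 42.2 and 8.99 CPM, so that *Pdgfra* was highest in YEJG-M1 and *Pdgfrb* highest in YEJG-M2. *Igfbp4*, a binding protein of insulin-like growth factors, was at 0.359, 0.928 and 0.6305 CPM in the YEJG-FP libraries, 9.004, 8.67 and 5.45 CPM in those of YEJG-M1 and 6.705, 5.65 and 7.496 CPM in those of YEJG-M2, with no count in the parental line. It did not pass between lines (adjusted p = 0.158, edgeR).

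TGF-beta, activin and BMP signalling gave 12 higher and 7 lower genes of 38 (50% called), with a median log2 difference of 0.09, and 7 passed as higher and 9 as lower between lines. The receptors divided. *Tgfbr1* was lower at 169, 153 and 153 CPM in the YEJG-FP libraries, 54.8, 80.7 and 79.7 CPM in those of YEJG-M1 and 78.1, 72.2 and 87.9 CPM in those of YEJG-M2, and *Tgfbr2* was lower with means of 285, 161 and 191 CPM. *Tgfbr3*, the co-receptor betaglycan, was higher at 4.95, 4.35 and 4.33 CPM in the YEJG-FP libraries, 21.4, 20.2 and 20.8 CPM in those of YEJG-M1 and 18.96, 19.5 and 18.6 CPM in those of YEJG-M2, although not between lines (adjusted p = 0.0819, edgeR). *Smad6*, an inhibitory SMAD, was higher at 1.43, 1.499 and 1.58 CPM in the YEJG-FP libraries, 6.35, 5.99 and 7.29 CPM in those of YEJG-M1 and 7.48, 5.41 and 8.4004 CPM in those of YEJG-M2, and *Id2*, a BMP target that blocks bHLH factors, was higher at 16.2, 13.1 and 12.1 CPM in the YEJG-FP libraries, 56.8, 47.2 and 43.8 CPM in those of YEJG-M1 and 38.1, 29.9 and 35.9 CPM in those of YEJG-M2. The activin subunit gene *Inhba* and the activin inhibitor *Fst* were both lower, with *Fst* at 142, 98.5 and 49.9 CPM.

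In Wnt signalling 5 genes were higher and 13 lower of 31 (58.1% called), with a median log2 difference of -0.28, and 1 passed as higher and 7 as lower between lines. *Wnt7a*, a ligand expressed in epithelia, was lower at 85.1, 82.99 and 91.7 CPM in the YEJG-FP libraries, 21.2, 19.1 and 18.9 CPM in those of YEJG-M1 and 31.2, 27.5 and 24.9 CPM in those of YEJG-M2, and its relative *Wnt7b* averaged 436, 226 and 237 CPM. The feedback genes *Axin2* and *Nkd2*, which beta-catenin signalling induces, were lower too, at 4.86, 1.404 and 1.89 CPM for *Axin2*. *Wnt5a*, a ligand of non-canonical signalling, was higher at 0.143, 0.214 and 0 CPM in the YEJG-FP libraries, 16.5, 16.9 and 18.4 CPM in those of YEJG-M1 and 1.16, 1.62 and 0.517 CPM in those of YEJG-M2, and the lung lines differed widely from each other. *Sfrp1*, a secreted Wnt antagonist, was lower at 23.7, 21.98 and 17.5 CPM in the YEJG-FP libraries, 9.26, 10.9 and 8.21 CPM in those of YEJG-M1 and 0.154, 0.421 and 0.582 CPM in those of YEJG-M2, with the fall in YEJG-M2 far larger than in YEJG-M1. *Sfrp1* did not pass between lines (adjusted p = 0.157, edgeR).

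Notch signalling gave 3 higher and 4 lower genes of 14 (50% called), with a median of 0.11, and 2 passed as higher and 3 as lower between lines. *Notch4*, a receptor known from mammary tumours, was higher at 1.29, 1.28 and 1.103 CPM in the YEJG-FP libraries, 13.5, 11.9 and 11.8 CPM in those of YEJG-M1 and 8.63, 7.88 and 9.76 CPM in those of YEJG-M2, and the mediator *Rbpj* was higher with means of 52.3, 88.2 and 94.5 CPM. The target *Hes1* and the ligands *Jag1* and *Dll1* were lower, while the ligand *Jag2* was higher. Semaphorins, plexins and neuropilins, a family of guidance cues and their receptors, gave 8 higher and 5 lower of 24 (54.2% called), with a median of 0.29, and 5 passed as higher and 2 as lower between lines. *Sema7a*, a membrane-anchored semaphorin, was higher at 3.51, 4.42 and 3.55 CPM in the YEJG-FP libraries, 9.09, 11.01 and 8.74 CPM in those of YEJG-M1 and 24.4, 31.5 and 25.1 CPM in those of YEJG-M2, and the receptor *Plxnd1* was higher at 4.52, 4.28 and 4.65 CPM in the YEJG-FP libraries, 15.5, 16.4 and 17.3 CPM in those of YEJG-M1 and 12.02, 13.05 and 12.1 CPM in those of YEJG-M2. *Sema4f* was lower at 8.97, 11.99 and 10.7 CPM in the YEJG-FP libraries, 2.74, 2.802 and 2.299 CPM in those of YEJG-M1 and 2.93, 2.59 and 2.46 CPM in those of YEJG-M2, without overlap.

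Glycolysis and hypoxia genes were higher in 20 of 33 tested and lower in 3 (69.7% called), with a median log2 difference of 0.39, and 5 were higher by at least 2-fold. Between lines, 15 passed as higher and 2 as lower. *Pdk1*, a mitochondrial kinase that inhibits pyruvate dehydrogenase, was at 16.4, 13.4 and 12.8 CPM in the YEJG-FP libraries, 57.5, 75.9 and 62.5 CPM in those of YEJG-M1 and 38.6, 52.6 and 43.4 CPM in those of YEJG-M2. The lung libraries exceeded the fat-pad ones by 4.69-fold and 2.98-fold. *Bnip3*, a hypoxia-induced gene of mitophagy, was at 11.7, 17.2 and 14.3 CPM in the YEJG-FP libraries, 77.2, 65.5 and 76.3 CPM in those of YEJG-M1 and 43.2, 41.4 and 37.9 CPM in those of YEJG-M2, and *P4ha2*, a collagen prolyl hydroxylase, was at 2.295, 1.21 and 2.21 CPM in the YEJG-FP libraries, 12.4, 12.1 and 9.53 CPM in those of YEJG-M1 and 6.397, 7.04 and 5.299 CPM in those of YEJG-M2. *P4ha2* did not pass between lines (adjusted p = 0.115, edgeR). The values of YEJG-M1 were the highest for *Pdk1*, *Bnip3* and *P4ha2*.

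Differences in the glycolytic enzymes themselves were smaller. *Aldoa* had log2 differences of 0.50 ± 0.09 in YEJG-M1 and 0.43 ± 0.09 in YEJG-M2, *Tpi1* of 0.68 ± 0.07 in YEJG-M1 and 0.44 ± 0.08 in YEJG-M2, and *Ldha*, lactate dehydrogenase A, of 0.44 ± 0.08 in YEJG-M1 and 0.33 ± 0.08 in YEJG-M2, and each was called. The 3 lower members were *Hk2*, *Ndrg1* and *Vegfa*, of which the last, the main angiogenic growth factor, averaged 48.4, 38.2 and 36.4 CPM. The transporter *Slc2a1* averaged 102, 113 and 105 CPM and was not called.

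Among lipid genes, 7 of 35 tested for cholesterol and fatty acid synthesis were higher and 3 lower (28.6% called, against 29% of all genes), with a median of -0.01, and 3 passed as higher and 2 as lower between lines. *Fads1* and *Fads2*, neighbouring desaturase genes that make polyunsaturated fatty acids, stood out. *Fads1* was at 16.4, 15.5 and 14.7 CPM in the YEJG-FP libraries, 71.3, 62.2 and 63.7 CPM in those of YEJG-M1 and 56.8, 65.8 and 57.8 CPM in those of YEJG-M2, and *Fads2* was at 6.96, 5.85 and 6.46 CPM in the YEJG-FP libraries, 25.1, 26.8 and 21.8 CPM in those of YEJG-M1 and 31.1, 42.1 and 33.9 CPM in those of YEJG-M2. All lung libraries lay above all fat-pad libraries for both, and the fitted differences ranged from 3.89-fold to 5.36-fold. *Fasn*, fatty acid synthase, was lower at 1871, 978 and 1292 CPM. Fatty acid oxidation gave 3 higher and 2 lower of 23 (21.7% called, under the 29% of all genes), with a median of 0.04. Of this list, 1 passed as higher and 2 as lower between lines. *Cpt1a*, the carrier enzyme at its entry, was higher at 39.7, 68.5 and 74.05 CPM. The glutathione and NRF2 list gave 10 higher and 8 lower of 36 (50% called), with a median of 0.10, and 4 passed as higher and 6 as lower between lines. Its leading gene, the aldehyde dehydrogenase *Aldh3a1*, was at 119, 97.98 and 125 CPM in the YEJG-FP libraries, 375, 335 and 354 CPM in those of YEJG-M1 and 289.7, 271 and 333 CPM in those of YEJG-M2, and it did not pass between lines (adjusted p = 0.156, edgeR).

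Uridine metabolism was read because the study turns on it. *Upp1*, the phosphorylase that splits uridine into uracil and ribose phosphate, was at 20.01, 22.1 and 22.9 CPM in the YEJG-FP libraries, 31.7, 29.97 and 25.6 CPM in those of YEJG-M1 and 21.4, 22.3 and 19.7 CPM in those of YEJG-M2. The YEJG-M2 values overlapped those of YEJG-FP, and the log2 differences were 0.45 ± 0.10 in YEJG-M1 and 0.00 ± 0.10 in YEJG-M2 (adjusted p = 0.00204 and 0.987, edgeR), so *Upp1* passed as higher in YEJG-M1 alone and was not called. *Upp2*, its relative, stayed near the limit of detection at 0.574, 0.285 and 0.6305 CPM in the YEJG-FP libraries, 1.801, 0.912 and 1.05 CPM in those of YEJG-M1 and 1.16, 1.08 and 0.388 CPM in those of YEJG-M2, and it passed as higher in YEJG-M1 alone (adjusted p = 0.0301, against 0.151 in YEJG-M2, edgeR) and was not called. Between lines it passed, with a log2 difference of 1.08 ± 0.31 (adjusted p = 0.0308, edgeR). Without replicate 3 of YEJG-M2 it was called over libraries (adjusted p = 0.0488, edgeR), with a mean of the pair of log2 differences over all settings between 0.52 and 1.49. *Upp2* overlaps *Acvr1* on the opposite strand. Over the list of 27, 4 genes were higher and 5 lower (33.3% called, against 29% of all genes), with a median of 0.01 that turned to -0.00 with the size factors of DESeq2, and 2 passed as higher and 5 as lower between lines. *Uck2*, the kinase that salvages uridine, was lower at 447, 308 and 364 CPM, and the nucleoside transporter *Slc29a1* was higher at 149, 196 and 188 CPM.

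Proliferation differed little. Of 39 genes of replication and mitosis, 6 were higher and 2 lower (20.5% called, under the 29% of all genes), with a median log2 difference of 0.14 and none at 2-fold. Between lines, 2 passed as higher and 2 as lower. *Mki67*, the proliferation marker, was at 438, 436 and 529 CPM in the YEJG-FP libraries, 361, 508 and 605 CPM in those of YEJG-M1 and 476, 506 and 663 CPM in those of YEJG-M2, and it was not called. The lower genes were *Mybl2*, a cell cycle transcription factor, and *Birc5*, or survivin, with *Birc5* at 349, 195 and 216 CPM. Cell cycle brakes and p53 targets gave 5 higher and 9 lower of 28 (50% called), with a median of -0.15, and 4 passed as higher and 6 as lower between lines. *Fas*, the death receptor, was higher at 2.51, 3.07 and 2.68 CPM in the YEJG-FP libraries, 6.603, 6.84 and 6.96 CPM in those of YEJG-M1 and 8.48, 8.48 and 9.89 CPM in those of YEJG-M2, while *Pmaip1*, the p53 target NOXA, was lower at 9.34, 1.04 and 2.65 CPM.

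The luminal lineage and hormone response list gave 4 higher and 2 lower of 11 (54.5% called), with a median of -0.01, and 3 passed as higher and 1 as lower between lines. *Gata3*, a luminal transcription factor, was higher at 17.3, 26.3 and 23.4 CPM, and the oestrogen receptor gene *Esr1* was not called. Of 39 Hox genes 2 could be tested, with a median of 0.15 and no call in edgeR's quasi-likelihood test. Imprinted genes gave 4 higher and 4 lower of 13 (61.5% called), with a median of -0.02, and 2 passed as higher and 5 as lower between lines. *Igf2r*, the clearance receptor of insulin-like growth factor 2, was lower at 207, 217 and 198 CPM in the YEJG-FP libraries, 101.1, 103 and 97.04 CPM in those of YEJG-M1 and 52.6, 54.5 and 44.3 CPM in those of YEJG-M2. *Mest* had 2.65, 2.43 and 2.68 CPM in YEJG-FP against a single count in each lung line, whereas *Peg10* and *Sgce*, a neighbouring pair, had 1 and 0 counts in YEJG-FP and averaged 0.433 and 0.319 CPM in YEJG-M1 and 5.08 and 3.27 CPM in YEJG-M2.

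**Figure D3:**
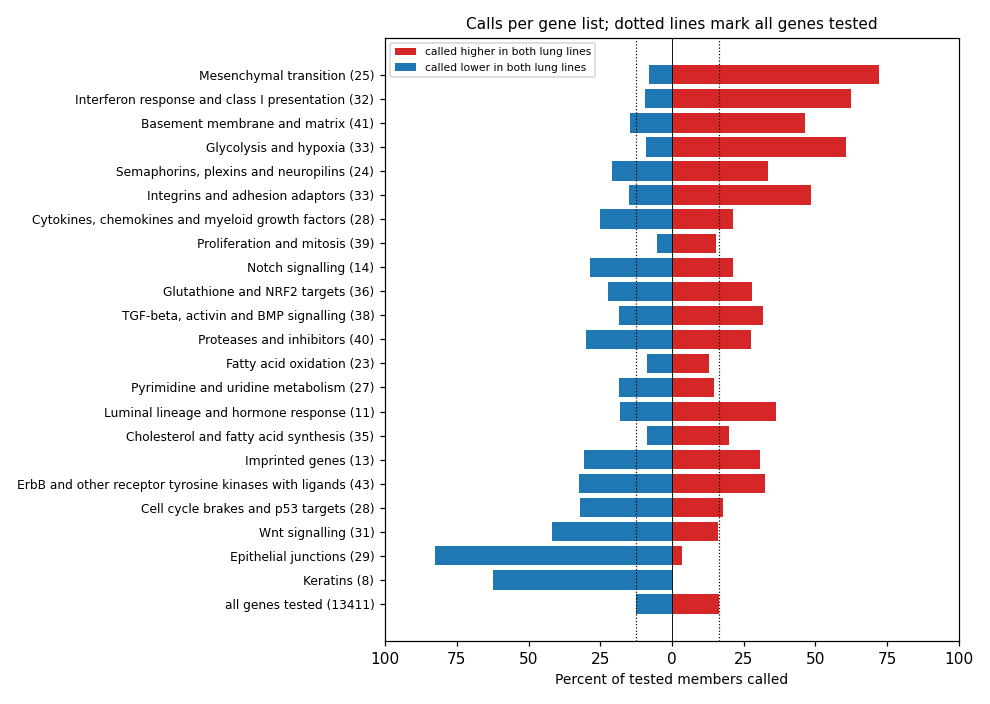
Percent of the tested members of each gene list, Hox genes aside, that were called higher (right) or lower (left) in both lung lines, with the number tested in parentheses and dotted lines at the 16.4% and 12.6% of all 13411 genes. Among the pathway lists, epithelial junctions and keratins extend furthest to the left, and mesenchymal, interferon and glycolysis genes furthest to the right.

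The 12 genes with the largest difference in each direction, among protein-coding genes of at least 5 CPM on average, were taken by rule. *Plcl2* (ENSMUSG00000038910, GRCm39 chr17:50815277-50999106), a phospholipase C-like protein that lacks enzyme activity, led the higher genes. It had no count in YEJG-FP and lay at 12.6, 17.3 and 14.7 CPM in YEJG-M1 and 4.39, 4.33 and 5.299 CPM in YEJG-M2. Against a floor of 3 counts over the 3 libraries of a line, it was at least 204-fold and at least 63.4-fold higher. *Rhoj*, a small GTPase, had 3 counts in YEJG-FP and averaged 8.27 and 6.39 CPM in the lung lines. Its count ratios were 113 (95% counting interval 38.4 to 552) and 86.6 (29.3 to 422), which cover counting error only.

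*Hexa* (ENSMUSG00000025232, GRCm39 chr9:59446818-59474021), the lysosomal hexosaminidase subunit, was at 0.215, 0.214 and 0.158 CPM in the YEJG-FP libraries, 25.04, 24.7 and 21.8 CPM in those of YEJG-M1 and 21.8, 22.01 and 24.3 CPM in those of YEJG-M2. It had no count in the 3 parental libraries, while YEJH and the lines derived from it ranged from 2.28 to 9.52 CPM. *Epb41l3*, a membrane skeleton protein, was at 0.502, 0.143 and 0.315 CPM in the YEJG-FP libraries, 35.4, 32.8 and 36.7 CPM in those of YEJG-M1 and 44.3, 48.2 and 48.3 CPM in those of YEJG-M2, and the difference was 108-fold and 145-fold. *Ddr2*, a receptor for fibrillar collagen, was at 3.16, 3.07 and 3.94 CPM in the YEJG-FP libraries, 148, 184 and 169 CPM in those of YEJG-M1 and 91.9, 106 and 109.98 CPM in those of YEJG-M2. It varied widely among YEJH and the lines derived from it, from 0.323 to 107 CPM, and did not pass between lines (adjusted p = 0.146, edgeR).

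*Tenm4*, a teneurin adhesion protein, was at 2.87, 2.64 and 2.21 CPM in the YEJG-FP libraries, 63.5, 71.2 and 65.7 CPM in those of YEJG-M1 and 74.4, 86.8 and 81.7 CPM in those of YEJG-M2, and *Olfm1*, a secreted olfactomedin protein, was at 0.359, 0.4995 and 0.236 CPM in the YEJG-FP libraries, 8.06, 7.56 and 10.7 CPM in those of YEJG-M1 and 8.55, 10.1 and 11.8 CPM in those of YEJG-M2. Both were apart between YEJG-FP and the lung lines, which follows from how they were picked. *Prune2* averaged 1.3004, 74.3 and 42.1 CPM. *Ces1g*, a carboxylesterase, averaged 0.198, 16.6 and 15.1 CPM, and *Slfn3*, a schlafen family member, averaged 0.365, 9.58 and 12.2 CPM. The last pair belong to families of near-identical copies, so their levels are uncertain. *Fbln1* was described with the matrix genes, and 11 of the 12 higher genes are given here.

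Among the lower genes, *Acan* (ENSMUSG00000030607, GRCm39 chr7:78702964-78764847), the proteoglycan aggrecan, was at 63.3, 61.9 and 65.02 CPM in the YEJG-FP libraries, 0, 0.0652 and 0.0657 CPM in those of YEJG-M1 and 0.308, 0.361 and 0.582 CPM in those of YEJG-M2. YEJG-M1 held 2 counts in all, and the count ratio of YEJG-FP over it was 1338 (95% counting interval 369.96 to 11052). Over YEJG-M2 the count ratio was 150.3. *Qng1* (ENSMUSG00000021550, GRCm39 chr13:58526321-58533056), a queuosine nucleotide glycosidase, was at 19.4, 19.1 and 19.2 CPM in the YEJG-FP libraries, 0, 0.0652 and 0.328 CPM in those of YEJG-M1 and 0.462, 0.1804 and 0.194 CPM in those of YEJG-M2. The parental libraries held 0.252, 0.569 and 0.223 CPM, near the lung lines, and YEJH and the lines derived from it at most 0.659 CPM. *Evc2*, a protein of the primary cilium, was at 16.4, 16.6 and 17.02 CPM in the YEJG-FP libraries, 0.686, 0.652 and 0.591 CPM in those of YEJG-M1 and 0.0771, 0.0601 and 0.129 CPM in those of YEJG-M2, and the parental level was 13.9, 12.7 and 11.3 CPM.

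*Pglyrp3*, a peptidoglycan recognition protein, was at 19.1, 19.3 and 18.4 CPM in the YEJG-FP libraries, 0.686, 0.782 and 1.05 CPM in those of YEJG-M1 and 0.539, 0.601 and 0.517 CPM in those of YEJG-M2. *Tgm1*, the transglutaminase of the cornified envelope, was at 28.3, 25.2 and 31.1 CPM in the YEJG-FP libraries, 2.74, 2.28 and 1.91 CPM in those of YEJG-M1 and 2.62, 1.62 and 1.16 CPM in those of YEJG-M2, and *Mme*, the endopeptidase neprilysin, was at 104, 95.1 and 98.7 CPM in the YEJG-FP libraries, 9.69, 14.4 and 14.5 CPM in those of YEJG-M1 and 11.6, 12.8 and 17.8 CPM in those of YEJG-M2. None of the 3 overlapped between YEJG-FP and the lung lines, which again follows from how they were picked. *Bcam*, a laminin-binding adhesion molecule, averaged 13.9, 2.35 and 0.564 CPM, and *Atp6v1c2*, a subunit of the proton pump, averaged 31.7, 6.07 and 6.297 CPM. *Esyt3*, an extended synaptotagmin, averaged 11.4, 2.54 and 0.913 CPM, and *Cracr2b*, a regulator of calcium channels, averaged 12.2, 2.83 and 2.03 CPM. *Dsg2* and *Krt19* completed the 12.

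**Figure D4:**
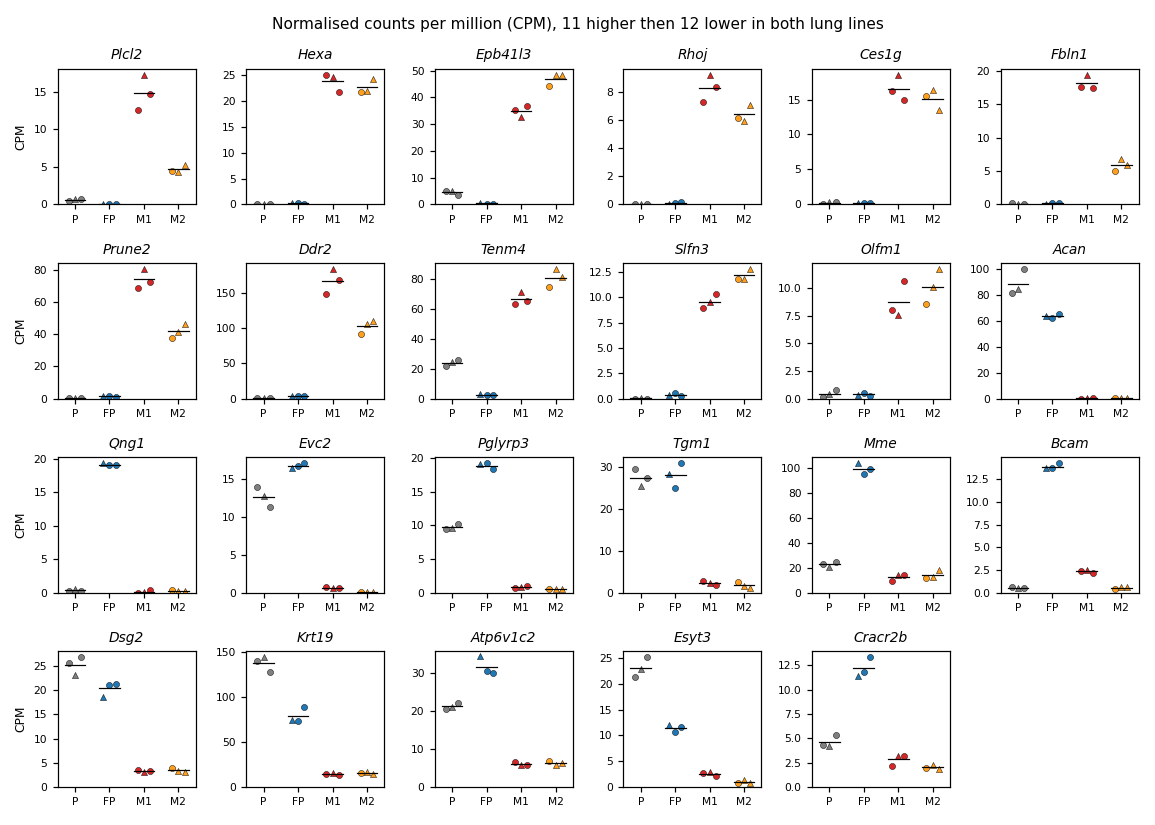
CPM on linear axes of 23 of the 24 genes with the largest differences, 11 higher and then 12 lower in both lung lines, in the parental line (P) and the 3 lines compared, with 1 point per library (circles run A, triangles run B) and bars at the means. *Plcl2* has no count in YEJG-FP and *Hexa* none in the parental line.

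The parental line gives another point of reference. Nearness was measured on log2(CPM + 1) of the line means, with the lung lines averaged on that scale. Of the 915 genes at 2-fold, the parental mean was nearer to YEJG-FP than to the mean of the lung lines for 748 (81.7%). For the higher genes this held for 508 of 590 (86.1%) and for the lower genes for 240 of 325 (73.8%). *Zeb1*, *Psmb8* and *Cdh1* followed the majority, while *Qng1*, *Cldn7* and *Col4a1* had parental levels nearer to the lung lines. Those of *Cldn7* and *Col4a1* lay above both YEJG-FP and the lung lines.

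Differences were also unevenly placed on the chromosomes. The segments named here were chosen after the values were seen. Positions are those of GRCm39, and the tested genes were read in windows of 10 Mb. Of 242 windows with at least 15 tested genes, 5 had median log2 differences over 0.3 in both lung lines and 3 under -0.3 in both, and all 8 lay on chromosomes 4, 11, 15 and 19. On chromosome 19, 432 tested genes had median log2 differences of 0.37 in YEJG-M1 and 0.29 in YEJG-M2, and 48.4% were called higher. On chromosome 15 from 70 Mb onwards, 355 genes had medians of 0.45 and 0.32, with 53.8% called higher.

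Lower medians were found elsewhere. The end of chromosome 11 from 110 Mb held 161 tested genes with medians of -0.67 and -0.53, and 66.5% were called lower. Between 50 and 80 Mb of chromosome 4, 74 genes had medians of -0.44 and -0.44, with 51.4% lower. The first 70 Mb of chromosome 15 held 188 genes with medians of -0.12 and -0.26. The 12045 other tested genes placed on chromosomes 1 to 19 and X had medians of -0.00 and 0.01. Another 156 tested genes were not placed there and are in neither group. The parental libraries were also read against YEJG-FP, as medians of log2(CPM + 1) over genes of at least 5 CPM. They lay at -0.49, -0.45 and -0.40 on the chromosome 4 segment, where the lung libraries lay between -0.62 and -0.54. On the first part of chromosome 15 they lay at -0.56, -0.56 and -0.55, and at the end of chromosome 11 at 0.31, 0.31 and 0.23. On chromosome 19 they lay at 0.07, 0.06 and 0.03, and on the later part of chromosome 15 at 0.07, 0.07 and 0.03. Copy number was not measured, and its part in these medians was not tested.

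The 5 segments held 1210 tested genes (9.02% of those tested), 672 of all calls (17.3%) and 108 of the calls at 2-fold (11.8%). Several genes described above lie in them. *Itga5*, *Itgb7*, *Parvb* and *Fbln1*, all higher, lie on the later part of chromosome 15 with *Krt7*, which was lower. *Fads1*, *Fads2*, *Fas*, *Prune2*, *Acta2* and *Cpt1a* lie on chromosome 19. *Birc5*, *Fasn* and *Itgb4* lie at the end of chromosome 11, and *Tnc* on the chromosome 4 segment. On the first part of chromosome 15 lie *Grhl2*, which was lower, and *Ccn3*, which was higher. Outside the segments, 21 junction genes were lower and 1 higher, and 16 mesenchymal genes were higher and 2 lower. Some other lists lost a larger share of their calls. Of 8 keratins tested 5 lie in the segments, and outside them 2 of the 5 lower calls remained. Those inside include *Krt7*, whose lower call ran against the medians of its segment, 0.45 and 0.32. Outside the segments the integrin list held 12 higher and 4 lower genes, cholesterol and fatty acid synthesis 4 and 1, Wnt signalling 4 and 10, the matrix list 16 and 5, and pyrimidine and uridine metabolism 4 and 2.

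**Figure D5:**
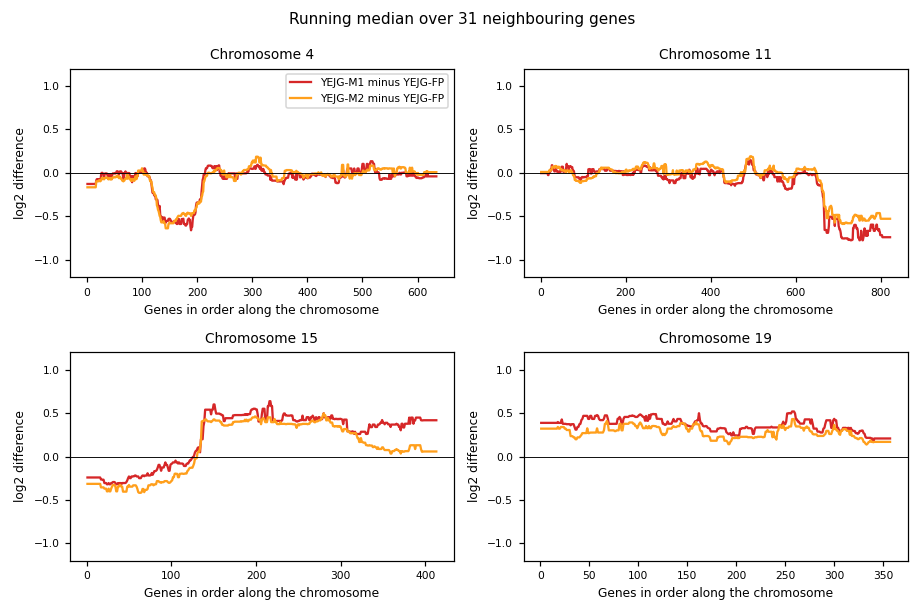
Running median over 31 neighbouring genes of the log2 difference of YEJG-M1 and of YEJG-M2 minus YEJG-FP, along the order of genes of at least 5 CPM on chromosomes 4, 11, 15 and 19, with 1 curve per lung line. Both curves lie above 0 along chromosome 19 and the later part of chromosome 15 and below 0 at the end of chromosome 11.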

How the data were processed

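RNA of cultured cells from 45 libraries had been counted per gene, and 9 were used, 3 each of YEJG-FP, YEJG-M1 and YEJG-M2. The values are read counts for each gene as deposited, made with FastQC, HISAT2, SAMtools 1.2 and HTSeq per the submitters' processing notes. The notes list GRCh38, although the gene identifiers are mouse. Strand setting and annotation release were not stated, so reads of overlapping or antisense genes cannot be told apart, and near-identical copies (*Ces1g*, the Slfn family, *Gapdh*) are uncertain. Besides the genes so marked above, *Csf1r*, *Loxl3*, *Epha1*, *Acta2*, *Mest*, *Cxcl16*, *Itgb4*, *Grhl2*, *Krt8* and *Egfr* overlap a tested gene on the opposite strand. So do *Irf1*, *Gata3*, *Fst*, *Wnt7b*, *Tpi1*, *Atp6v1c2* and *Cracr2b*, and *Aldoa* overlaps a tested gene on its own strand. Of 54838 gene identifiers, 50764 (92.6%) matched GENCODE vM39 on GRCm39. Rows that name no gene held 33.5% of reads and were left out. All columns were matched to a sample, with 0 left over.

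Genes were filtered and TMM normalised in edgeR 4.0.16 under R 4.3.3, and YEJG-M1 and YEJG-M2 were each compared with YEJG-FP by the quasi-likelihood test with run as a covariate and Benjamini-Hochberg adjustment. A call needed an adjusted p under 0.05 and the same direction in both. Counts summed per line were tested by the same test and adjustment over the fat-pad and lung lines of both origins. That fit had no run term, left the parental lines out, and also gave the difference from the YEJH contrast. Principal components and correlations used log2 CPM with a prior count of 2 and the run difference removed with limma 3.58.1, the correlations over the 1000 most variable genes. Named genes were the 12 largest differences in each direction among called protein-coding genes of at least 5 CPM on average with under 2-fold between runs (ranked by the smaller of the pair of differences), up to 3 per direction and list at 2-fold, and 5 genes measured in the study. Other list members named as examples were chosen after their values were seen. There were 23 pathway lists and 7 marker lists. Members and lists were chosen with earlier results of these data known. Alternatives were DESeq2 1.42.0 (size factors and Wald test), other filters, no run term, a replicate block, each run alone, glmTreat, and leaving out each library or line. The code was tested on simulated data with 200 changed genes and a spread set by hand. The fit over libraries recovered 99% of them and the fit between lines 59.5%. A gene that did not pass between lines may therefore still differ.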

Additional observations from a re-analysis of the deposited data

Results flagged for a closer look

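The lung minus fat-pad difference of 57 of the 79 named genes was unlike that among the YEJH lines, in the test with counts summed per line, against 13.3% of all genes. Most named genes were picked for a large YEJG difference, which enters this test, so a high count was expected. Those given below are the 21 of them that are top-ranked or study genes. The log2 difference of YEJG minus that of YEJH was 6.82 for *Hexa*, 7.32 for *Epb41l3*, 7.23 for *Fbln1*, 5.43 for *Prune2*, 4.44 for *Tenm4*, 4.68 for *Slfn3*, 5.20 for *Olfm1* and 1.39 for *Itga5*. It was -5.67 for *Qng1*, -5.56 for *Evc2*, -4.37 for *Pglyrp3*, -3.51 for *Tgm1*, -2.45 for *Mme*, -3.48 for *Bcam*, -2.36 for *Dsg2*, -2.29 for *Krt19*, -2.19 for *Atp6v1c2*, -2.02 for *Esyt3* and -1.93 for *Cracr2b*. *Plcl2* had no count in YEJG-FP and *Rhoj* had 3, so no size is given for them (adjusted p = 0.0357 and 0.00259, edgeR). What sets YEJG apart was not tested, and the YEJG side rests on 1 fat-pad line.

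Reads under the alignment quality limit had been counted in run A only. Among the 9 libraries the smallest such count in run A was 822828 and the largest 1121683, and run B had 0 throughout. The reason was not tested. With 3 libraries per line, none was tested as an outlier.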

How the results depend on the processing

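The count of genes called in both lung lines was 3892 and that at 2-fold was 915. With DESeq2 size factors they were 3916 and 924, with the DESeq2 Wald test 3213 and 859, without a filter 4179 and 1053, with a filter at 1 CPM 3785 and 769, and without a run term 3694 and 905. A replicate block, which assumes pairing by replicate number, gave 4162 and 925. Libraries of the same number had residuals correlated at a mean r of 0.155 (-0.187 to 0.575). Those of other numbers had a mean r of -0.076 (-0.462 to 0.460). Of 9 libraries, 6 correlated best with their own number. Whether libraries of the same number share more than a number is not known. Run A alone called 1843 genes in both lines and run B alone 2194, with fewer samples and arms of 1 library. Testing against a 2-fold limit (glmTreat) gave 488, a stricter test by construction. Leaving out 1 library gave 2737 (without YEJG-FP replicate 1) to 4273 (without YEJG-M1 replicate 3) and 852 to 954. Chosen after seeing the data, leaving out chromosomes 15 and 19 gave 3359 and 829. The between-line count was 2934 and that differing from YEJH 2275. With 1 library left out they ranged from 2780 to 3249 and from 2175 to 2576. DESeq2 size factors gave 2943 and 2268, the DESeq2 Wald test 3479 and 3009, no filter 2502 and 1905, run A alone 2265 and 1726, run B alone 2126 and 1569, and added parental lines 2930 and 2259. With line YEJG-M1 left out the between-line counts were 1992 and 1627, and with YEJG-M2 left out 3018 and 2593. Of 79 named genes, all kept their direction, and only *Fn1*, as given above, lost its call and only *Upp2* gained one. With DESeq2 size factors the median log2 difference over all genes tested went from 0.01 to -0.01 and that of the pyrimidine and uridine list from 0.01 to -0.00, and no other list's median changed sign. The cause was not tested.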

Other observations

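Some genes were near the limit of detection on one side only. These examples were chosen after their values were seen. With at most 3 counts in YEJG-FP and at least 1 CPM in both lung lines there were 20 genes, of which 17 were also under 1 CPM in the parental line. *Nkx2-5*, a cardiac homeobox factor, had no count in YEJG-FP and lay at 2.57, 2.48 and 1.84 CPM in YEJG-M1 and 1.93, 1.56 and 1.29 CPM in YEJG-M2. *Cd248*, or endosialin, lay at 4.202, 2.74 and 2.83 CPM and 3.78, 3.07 and 2.78 CPM. *Wipf1*, an actin regulator, differed from these in being present in the parental line, at 6.54 CPM.

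In the other direction 16 genes had at most 3 counts in each lung line and at least 1 CPM in YEJG-FP, of which 10 were under 1 CPM in the parental line. *Tgif2*, a homeobox repressor, lay at 7.46, 9.28 and 8.91 CPM in YEJG-FP. *Xylt1*, a xylosyltransferase of proteoglycan synthesis, lay at 4.45, 4.42 and 3.78 CPM and had no count in any lung library. *Eomes*, a T-box factor, lay at 1.22, 1.14 and 0.946 CPM in YEJG-FP and at 8.36 CPM on average in the parental line.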
